A study of Mus musculus with 8 samples.

Results

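The 7 genes described here encode the enzymes that build triglyceride from glycerol phosphate: Gpam, Agpat2, Lpin1, Lpin2, Mogat1, Dgat1 and Dgat2. They were chosen by name, as every probe that is not a control and carries one of these gene names. This gave 11 probes of the 55681 different probes on the array, and all 7 genes were among the 14894 genes tested. RNA came from livers of bl6 mice, 12 weeks old and fed chow, taken on day 6 after transduction with an adenovirus. The 4 control arrays come from mice given the control virus pblockITcontrol and the 4 shRaly arrays from mice given pblockITshRaly, which carries a short hairpin against Raly. Both groups thus received a virus, and mice without virus were not analysed here. The labels give liver tissue as a whole as the source, so fewer cells of a type and less RNA per cell cannot be told apart. The titles number the samples without saying that each is a separate mouse, so the spread behind every p-value is that between these samples and may be technical.

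Triglyceride assembly in liver starts on glycerol 3-phosphate. A glycerol phosphate acyltransferase (Gpam, the mitochondrial form) adds the first acyl chain, an acylglycerol phosphate acyltransferase (Agpat2) adds the next and makes phosphatidate, and a lipin (Lpin1, Lpin2) removes the phosphate to give diacylglycerol. A diacylglycerol acyltransferase (Dgat1 or Dgat2, which belong to unrelated families) adds the last chain. Mogat1 makes diacylglycerol by another route, from monoacylglycerol. Lipin 1 is also known as a nuclear coactivator of fatty acid oxidation genes, and its liver mRNA is known to respond to fasting.

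The 4 genes measured by 2 probes each have the probes set side by side below, since each pair gives separate readings of 1 gene. The first 30 of the 60 bases of each probe are given, 5′ to 3′, as the array files hold them.
Lpin1 probe 1: aggtctcatgtggtccacatagttcacagg
Lpin1 probe 2: attatccatgaatgaggcctaatgacagtg
Lpin2 probe 1: agcagaagaacaaatgcacagttcatgtct
Lpin2 probe 2: ccaggcacacagccatatatcaggcaaaac
Gpam probe 1: gcatgcccttcaggggaagactgtgagtca
Gpam probe 2: cacgtgacaatgcagtctctaattgttcac
Agpat2 probe 1: gacggcctcagtcacaaatcactgctgtgt
Agpat2 probe 2: tctcagattccccaagagaactctgccatt

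On mouse build mm9, the Lpin1 probes lie on the minus strand of chromosome 12, at 16543695 to 16543754 (probe 1) and 16542515 to 16542574 (probe 2), 1180 bases apart. The Lpin2 probes lie on the plus strand of chromosome 17, at 71596935 to 71596994 (probe 1) and 71581567 to 71581626 (probe 2). The latter was designed on an Ensembl transcript of Lpin2 and the former on a RefSeq transcript, and 15368 bases separate them. The Gpam probes lie on the minus strand of chromosome 19, at 55143274 to 55143333 (probe 1) and 55144289 to 55144348 (probe 2). The Agpat2 probes lie on the minus strand of chromosome 2, at 26448610 to 26448669 (probe 1) and 26449107 to 26449166 (probe 2). The other 3 genes had 1 probe each: Mogat1 on chromosome 1 (plus strand, 78534677 to 78534736), Dgat2 on chromosome 7 (minus strand, 106302215 to 106302274) and Dgat1 on chromosome 15 (minus strand, 76333128 to 76333274). The Dgat1 probe covers 147 genomic bases with its 60 bases, so its match to the genome is split. Whether each probe lies in an exon or a UTR was not analysed here.

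Raly itself was measured by 1 probe. Relative to the control mean, its signal was 51.8%, 80.9%, 58.3% and 62.7% on shRaly arrays 1 to 4, and 100.4%, 84.3%, 105% and 112% on control arrays 1 to 4. The highest shRaly array lay below the lowest control array, and the mean was 62.5% of control (log2 fold change -0.68, SE 0.15, n = 4 and 4; limma adjusted p = 0.0751 over all genes; a two-sided exact permutation test gave p = 0.0286, which is the lowest that 4 against 4 arrays allow). The array shRaly 2 had the most Raly of its group and the fewest spots well above background, 45.9% against 49.1% to 51.1% on the others. All 8 arrays shared 1 slide, with controls in slide row 1 and shRaly arrays in row 2, so position and group cannot be told apart. All 12 hepatocyte markers were well above background on all 8 arrays.

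None of the 7 genes passed the threshold of the comparison, a limma p of 0.05 after Benjamini-Hochberg adjustment over all 14894 genes, which 182 genes (1.22%) passed. The gene with the largest difference was Lpin1, at 2.60 times the control level. The other 6 lay between 89.5% and 119% of control. Lpin1 was the 1 gene of 7 with an unadjusted p under 0.05, where the share among all genes was 16.1%. In 0 of the 7 genes did the control and shRaly arrays separate without overlap, against 10.3% of all genes. The median log2 fold change of the 7 was 0.12, or 0.07 without Lpin1, and that of all genes was -0.02. Leaving out control 3 turned the median of the 7 to -0.06. All counts of this kind compare 4 control with 4 shRaly arrays, and 87 of the 88 readings (11 probes on 8 arrays) were well above background. All values below are the processed signal after scaling each array to its 75th percentile, as a percentage of the control mean. That mean is geometric for single genes and arithmetic for the summed levels of the marker lists, in which bright genes weigh most.

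**Figure D1:**
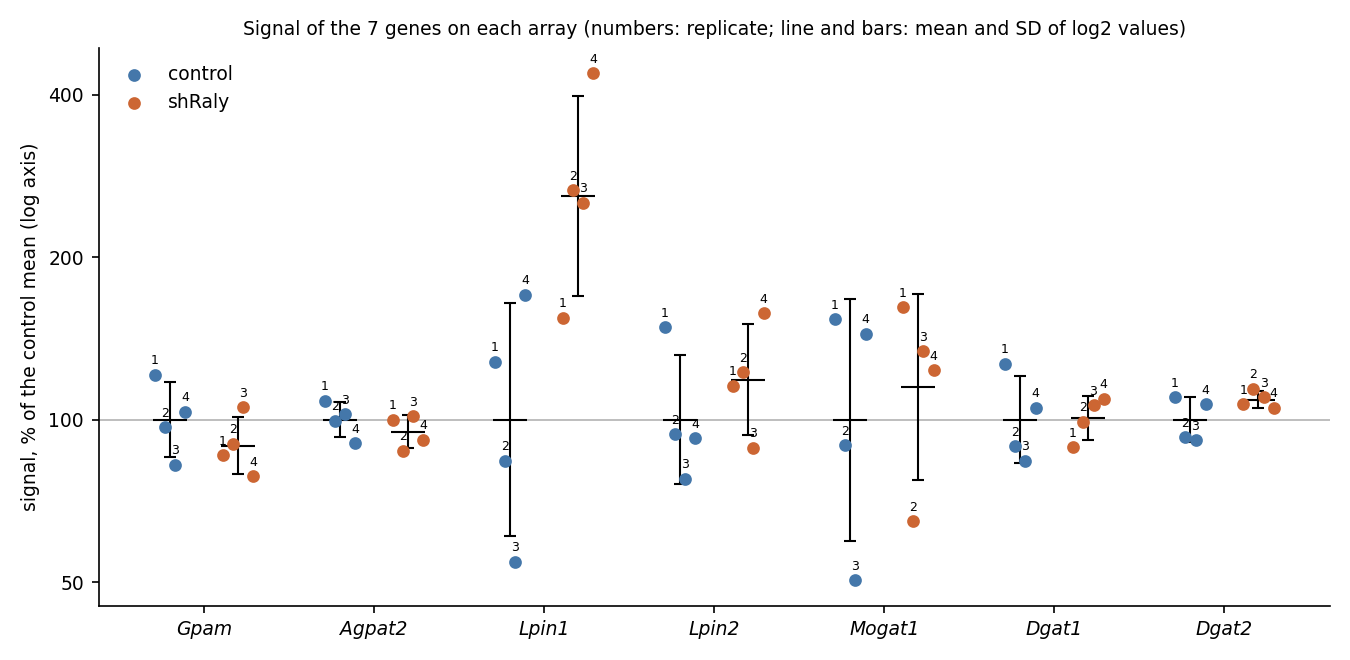
Signal of each gene on each array as a percentage of the control mean, on a log axis, with replicate numbers beside the points and the mean and SD of the log2 values as lines. Lpin1 is the gene whose shRaly arrays lie mostly above the controls, with shRaly 1 (154%) below control 4 (170.5%), while the 6 others overlap around 100%.

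Gpam, which commits glycerol phosphate to lipid synthesis, stood slightly lower in shRaly livers without passing the test. Its signal was 121%, 96.8%, 82.5% and 103% on control arrays 1 to 4 and 85.9%, 90.2%, 105% and 78.7% on shRaly arrays 1 to 4. The groups overlapped, and shRaly 4 alone lay below the lowest control. The mean was 89.5% of control, with a 95% interval of 72.1% to 111% (log2 fold change -0.16, SE 0.14; limma adjusted p = 0.610; exact permutation test, two-sided p = 0.314). The other Gpam probe gave 81.5% of control, with the lowest value again on shRaly 4 (68.1%) and the highest on control 1 (121%). Its log2 fold change of -0.29 (SE 0.14) had a limma adjusted p of 0.370 over the 19884 probes tested, of which 0.971% passed. The difference between the changes of the 2 Gpam probes was within the spread of the arrays (exact permutation test, two-sided p = 0.257).

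Agpat2, the lysophosphatidate acyltransferase whose loss in people causes lipodystrophy, was among the steadiest of the genes on probe 1. Its arrays ran from 90.5% to 108% in the controls and from 87.5% to 101% in the shRaly group. The spread of this probe within groups was small (SD 0.10 on the log2 scale, pooled over 4 and 4 arrays), and 85.8% of all genes varied more. The mean was 94.97% of control, with a 95% interval of 82.0% to 110.0% (log2 fold change -0.07, SE 0.09; limma adjusted p = 0.743; exact permutation test, two-sided p = 0.371). The other Agpat2 probe varied more. It gave 85.6% of control (log2 fold change -0.22, SE 0.17), with 134% on control 1, its highest array, and 70.1% on shRaly 1, its lowest.

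Lpin1, a phosphatidate phosphatase, had the largest difference of the 7 genes. On probe 1 the control arrays 1 to 4 stood at 128%, 84.0%, 54.5% and 170.5% of the control mean, and the shRaly arrays 1 to 4 at 154%, 266%, 252% and 438%. All 4 shRaly arrays were above the control mean and 3 of them above every control array. The exception was shRaly 1, which lay below control 4, so the groups overlapped by that 1 pair of arrays.

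The mean of Lpin1 in shRaly livers was 2.60 times that of controls, with a 95% interval of 1.397 to 4.83 times (log2 fold change 1.38, SE 0.39). The limma adjusted p was 0.137 over all genes (unadjusted p = 0.00697), and the exact permutation test gave a two-sided p of 0.0571, against a smallest possible 0.0286. Among all genes tested this was the 29th largest rise in log2 fold change, and 11 of the 29 genes with a rise at least that large passed the threshold. The gene also varied widely within groups: the SD was 0.72 in controls and 0.62 in the shRaly group on the log2 scale (n = 4 each), and 2.14% of genes had a larger pooled SD. With any single array left out, the log2 fold change stayed between 1.09 and 1.63 and the adjusted p between 0.0986 and 0.303.

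Lpin1 probe 2 showed the same order of arrays at the extremes. The control arrays 1 to 4 had 112%, 80.9%, 44.1% and 249.6% of the control mean, and the shRaly arrays 1 to 4 had 211%, 355%, 423% and 773%. Control 3 was again the lowest and shRaly 4 the highest, and shRaly 1 again lay below control 4. On control 3 this probe was not well above background. Before scaling, the control arrays 1 to 4 read 38.9, 24.7, 14.8 and 79.5 on probe 2, against 711 to 2112 on probe 1. The log2 fold change of probe 2, which rests on these low control signals, was 1.98 (SE 0.54), 3.96 times the control level. Its limma adjusted p was 0.135 over all probes. The changes of the 2 Lpin1 probes differed by 0.61 on the log2 scale, with an exact permutation p of 0.0857 (two-sided).

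**Figure D2:**
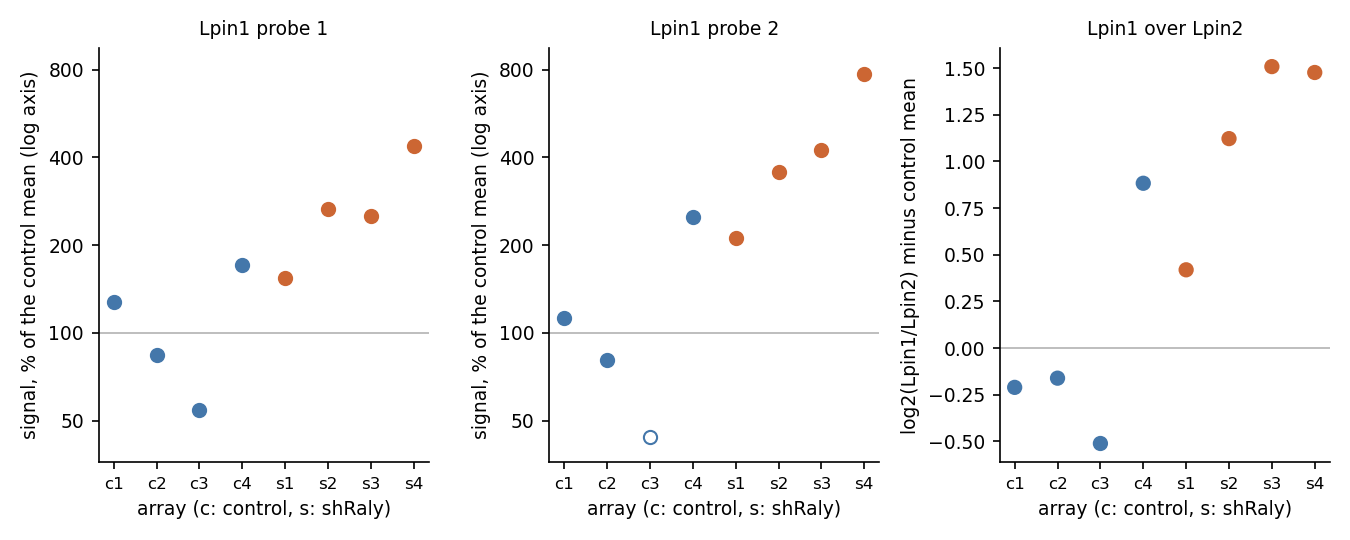
The signal of the 2 Lpin1 probes on each array (left and middle, percentage of the control mean, log axis; the open circle was not well above background) and the log2 ratio of Lpin1 to Lpin2 on the same array relative to the control mean (right). In each panel control 4 lies above shRaly 1, and the other 3 shRaly arrays lie above all controls.

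Lpin2, the lipin regarded as a main form in liver, did not pass the test on either probe. Its control arrays 1 to 4 stood at 148%, 93.9%, 77.7% and 92.4% and its shRaly arrays 1 to 4 at 116%, 122%, 88.7% and 158%. Control 1 was above all shRaly arrays but shRaly 4. The mean was 119% of control, with a 95% interval of 83.1% to 169% (log2 fold change 0.25, SE 0.23; limma adjusted p = 0.636; exact permutation test, two-sided p = 0.371). On probe 2, shRaly 1 (176%) and shRaly 4 (143%) were highest and the 4 controls lay between 92.7% and 107%, for a log2 fold change of 0.34 (SE 0.19; limma adjusted p = 0.445 over all probes).

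Because Lpin1 and Lpin2 carry out the same reaction, their ratio was compared on each array, where array scaling cancels. Relative to the control mean, log2 of Lpin1 over Lpin2 was -0.21, -0.16, -0.51 and 0.88 on control arrays 1 to 4 and 0.42, 1.12, 1.51 and 1.48 on shRaly arrays 1 to 4. The ratio was 2.19 times as high in shRaly livers on average (log2 difference 1.13, SE 0.40 from the spread of the arrays). The exact permutation test gave a two-sided p of 0.0571, and 0.171 after Benjamini-Hochberg adjustment over the 3 pairs of genes compared. The difference between the 2 lipins did not pass the test.

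Mogat1, the monoacylglycerol acyltransferase, was nearly as variable within groups as Lpin1, with a pooled SD of 0.66 on the log2 scale. With normexp, the SE of its log2 fold change was 0.18 in place of 0.39, against 0.33 in place of 0.39 for Lpin1. The processed signal of Mogat1 was low, from 53.8 to 169 before scaling. Its control arrays 1 to 4 had 154%, 89.6%, 50.4% and 144% and its shRaly arrays 1 to 4 had 162%, 64.9%, 134% and 124%. Control 3 and shRaly 2 were the lowest arrays of their groups. The mean was 115% of control with a 95% interval of 62.0% to 213% (log2 fold change 0.20, SE 0.39; limma adjusted p = 0.849; exact permutation test, two-sided p = 0.686), and without control 3 the log2 fold change was -0.13. For Gpam over Mogat1, the entry enzymes of the 2 routes to diacylglycerol, the log2 ratio was lower by 0.36 in shRaly livers (value -0.36; exact permutation test, two-sided p = 0.371, also 0.371 after adjustment over the 3 pairs).

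Dgat1 and Dgat2 add the final acyl chain. Dgat1 stood at 127%, 89.3%, 83.9% and 105% on control arrays 1 to 4 and at 88.9%, 99.2%, 106% and 109% on shRaly arrays 1 to 4. The shRaly values lay inside the control range. The mean was 101% of control, with a 95% interval of 80.6% to 126% (log2 fold change 0.01, SE 0.14; limma adjusted p = 0.981; exact permutation test, two-sided p = 0.943), and 96.5% of all genes had a larger difference. The sign turned with scaling to the array median (-0.018) and with normexp (-0.050).

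Dgat2, the enzyme tied most closely to newly made fatty acids in liver, was the gene with the tightest shRaly group. Its control arrays 1 to 4 had 110.1%, 92.8%, 91.6% and 107%, and its shRaly arrays 1 to 4 had 107%, 114%, 109.9% and 105%. All 4 shRaly arrays lay above the control mean, while controls 1 and 4 lay among them. The mean was 109% of control, with a 95% interval of 94.1% to 126% (log2 fold change 0.12, SE 0.09; limma adjusted p = 0.551; exact permutation test, two-sided p = 0.257). The log2 ratio of Dgat1 to Dgat2 within an array had a group difference of -0.11, with a two-sided p of 0.343 in the exact permutation test (0.371 when adjusted over the 3 pairs).

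**Figure D3:**
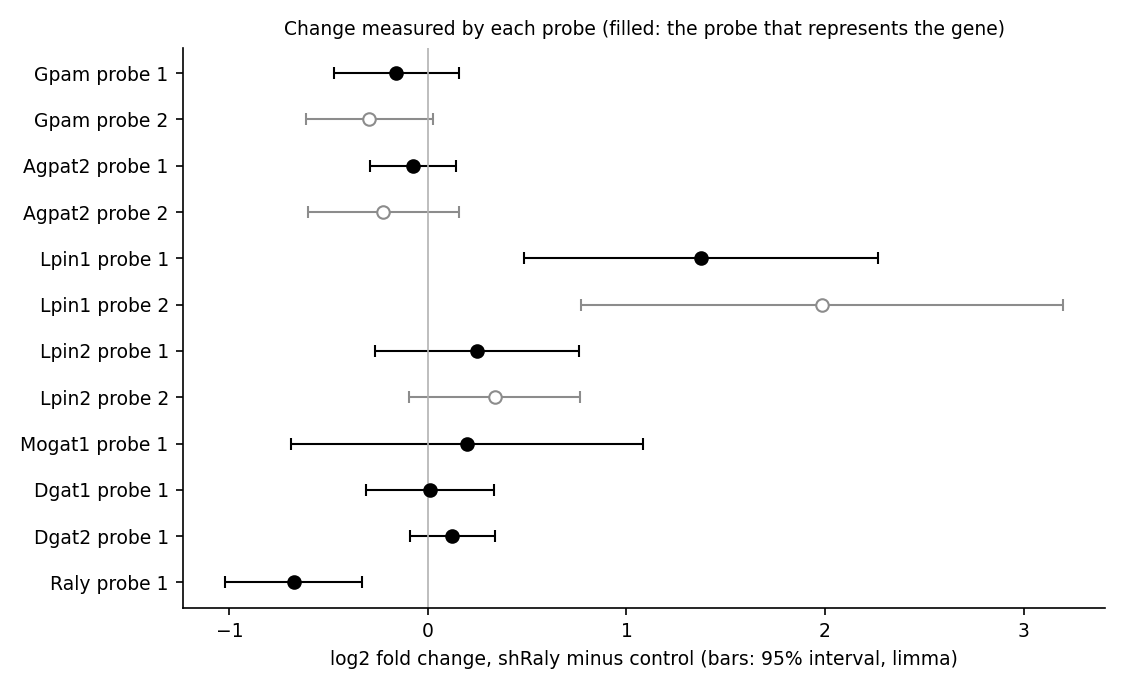
Log2 fold change (shRaly minus control) of each probe of the 7 genes and of Raly, with 95% intervals from limma over 4 and 4 arrays. The intervals of Dgat1, Dgat2, Agpat2 probe 1 and Gpam probe 1 lie within 0.5 of 0 on either side, those of Mogat1 and Lpin1 are the widest, and Lpin1 probes 1 and 2 stand at 1.38 and 1.98.

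The 3 genes whose spread over the 8 arrays exceeded that of the median gene (SD 0.21 on the log2 scale) were Lpin1, Lpin2 and Mogat1. For each, the most similar genes were taken by the root-mean-square difference of their profiles over the 8 arrays (log2 value minus the gene's own mean), among 12364 genes. Closest to Lpin1 were Noct, nocturnin, whose mRNA is known to cycle over the day (0.31), Nnmt, nicotinamide N-methyltransferase (0.35), and Nrg4, a ligand of the epidermal growth factor family (0.40), where the median gene differed from Lpin1 by 0.92. These genes had log2 fold changes of 1.04 (Noct, limma adjusted p = 0.126), 0.95 (Nnmt, 0.231) and 1.51 (Nrg4, 0.0385). The call of Nrg4 held with 2 of the 8 single arrays left out, namely control 1 and shRaly 2, and the adjusted p reached 0.124 without shRaly 4. It was also lost with no filter on dim probes (adjusted p = 0.107) and with a replicate block (0.0869). Noct stood at 0.50 in place of 1.04 when the mean of its passing probes was taken. Closest to Lpin2 were Slc25a29 (0.13), Srm (0.14) and Pdcd11 (0.15), and closest to Mogat1 were Sult2a7 (0.18), Lgals1 (0.23) and Tmem28 (0.25). This likeness is over the 8 arrays only and includes the difference between the groups.

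Of the genes around these enzymes in the pathway, 1 regulator passed the threshold, where 1.22% of all genes did. Groups with no overlap, given for single genes below, were found in 10.3% of all genes. Glycerol phosphate supply had 0 of 7 genes past the threshold and a median log2 fold change of 0.15. Its genes of smallest p were Gpd1l, a glycerol phosphate dehydrogenase relative, at 0.30 (limma adjusted p = 0.276), and Gpd2, the mitochondrial dehydrogenase, at -0.33 (0.311). The isoenzymes and relatives of the 7 genes had 0 of 16 past the threshold, and a median of 0.02. Gpat2 stood at -0.49 (limma adjusted p = 0.247), Agpat1, a lysophosphatidate acyltransferase, 0.35 (0.392), and Lpin3, the remaining lipin, 0.02 (0.940). Awat1 and Dgat2l6, of the same family as Dgat2, had no array with a spot well above background.

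Fatty acid uptake and activation had 0 of 13 genes past the threshold and a median of -0.08. Dbi, the acyl-CoA binding protein, stood at -0.24 (limma adjusted p = 0.261) with no overlap of the groups, and Acsl1, a main acyl-CoA synthetase of liver, at -0.22 (0.295). The phospholipid branch, which draws on phosphatidate and diacylglycerol, had 0 of 17 genes past the threshold and a median of 0.05. In it Cdipt, phosphatidylinositol synthase, stood at 0.25 (adjusted p = 0.213) and Selenoi, an ethanolamine phosphotransferase, at -0.26 (0.262), both with no overlap of the groups. Diacylglycerol kinases and other lipid phosphatases had 0 of 11 past the threshold and a median of -0.02, with Dgke, the epsilon kinase, at -0.49 (0.0908) and no overlap of the groups, and Plpp3, a lipid phosphate phosphatase, at -0.28 (0.371). With normexp background correction Dgke stood at -0.13 (limma adjusted p = 0.639).

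Among 16 regulators known to act on these genes, 1 was lower, 0 were higher and 15 did not pass, with a median of -0.06. Of all genes, 1.22% passed. Ppara, the receptor that drives fatty acid oxidation genes, stood at 74.8%, 73.6%, 56.8% and 62.8% of the control mean on shRaly arrays 1 to 4, and at 96.2%, 109.8%, 101% and 93.5% on control arrays 1 to 4. It fell to 66.6% of control (log2 fold change -0.59, SE 0.11; limma adjusted p = 0.04995, just past the threshold). Of the single arrays left out, the call held without shRaly 2 alone, and the adjusted p ran up to 0.153 without shRaly 4. The call was also lost with quantile normalization (0.0948), the mean of probes (0.0961), a replicate block (0.120) and no filter on dim probes (0.139). Cebpa, a hepatocyte transcription factor, stood at -0.28 (adjusted p = 0.248). The 16 regulators ran from -0.59 (Ppara) to 0.53 (Cebpb) in log2 fold change, and 7 of them were above 0. Srebf1, the sterol regulatory factor of lipogenesis, stood at 0.11 (SE 0.22, adjusted p = 0.858), with shRaly arrays from 67.1% to 138% of the control mean. Insig1, which retains that factor's precursor in the endoplasmic reticulum, stood at -0.35 (0.324) and Mlxipl, the carbohydrate response factor, at 0.03 (0.931). Nr1h3, a liver X receptor, stood at 0.13 (0.453) with no overlap of the groups. Ppargc1a, a coactivator known to induce Lpin1 in fasting, stood at 0.25 (0.626), and Nr3c1, the glucocorticoid receptor, at -0.07 (0.835).

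**Figure D4:**
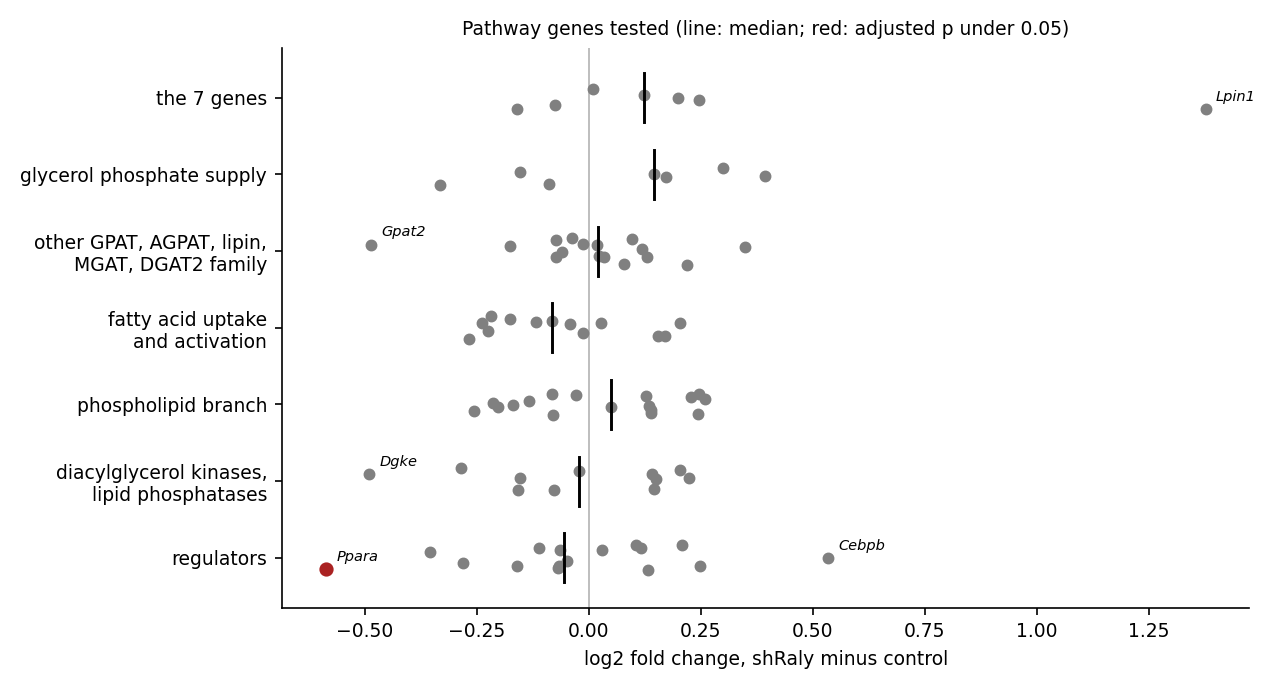
Log2 fold change (shRaly minus control) of every tested gene in the pathway lists, with the list median as a line and the gene past the threshold in red. Apart from Lpin1 at 1.38, the genes lie between -0.59 (Ppara, the gene past the threshold) and 0.53 (Cebpb).

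Markers of the cell types a liver sample could hold were given beside these results, and their part in the results was not tested. Hepatocyte markers had 0 of 12 genes past the threshold (median -0.07, 4 of 12 above 0), with Fgb at -0.29 and Alb at -0.37 as the genes of smallest p, Tat highest at 0.44, and a summed level of 94.5% to 105% of the control mean on controls and 84.6% to 105% on shRaly arrays. Adipocyte markers had 0 of 9 past it (median 0.01, 5 of 9 above 0), with Cfd at -0.69 (from -1.05 to -0.24 with single arrays left out), Aqp7 at -0.15 and Slc2a4 highest at 0.39, and a sum of 94.7% to 105% on controls and 81.9% to 111% on shRaly arrays. Plin1 had no spot well above background, and Adipoq and Lep did not pass the filter. Endothelial markers had 0 of 8 (median -0.16, 3 of 8 above 0; Stab2 -0.31 with no overlap of the groups, Clec4g -0.27), with sums of 94.0% to 105% on controls and 76.4% to 92.6% on shRaly arrays. Counts of 0 were also found for Kupffer cell and macrophage markers (9 genes, 5 above 0, median 0.08; Vsig4 -0.19, C1qb 0.14; sums of 75.05% to 111% and 87.9% to 109%; Timd4 had no spot well above background), and for stellate cell and fibroblast markers (8 genes, 2 above 0, median -0.20; Pdgfrb -0.46, Lrat -0.56; sums of 91.3% to 111% and 92.9% to 109.8%). Neutrophil and lymphocyte markers had 0 of 10 (median 0.09, 6 of 10 above 0; Cd3e -0.39 and Cd79a -0.36, both with no overlap of the groups; S100a8 0.41, S100a9 0.40; sums of 87.9% to 113% and 93.8% to 118%; Ngp had no spot well above background). Of muscle markers 2 of 7 could be tested (Pvalb -0.06, Acta1 0.67; sums of 91.6% to 113% and 88.7% to 121%), and Ckm, Myh4, Actn3 and Tnnt3 had no spot well above background. Of gut and pancreas markers 3 of 9 on the array could be tested, with 1 of 3 above 0 (Fabp2 -0.31, Vil1 -0.51, Cela1 0.25). Vil1 was well above background on 4 of the 8 arrays and Cela1 on 6. Their sums were 93.8% to 108% on controls and 66.4% to 96.6% on shRaly arrays. Lct, Sis, Cpa1, Pnlip, Prss2 and Try4 had no spot well above background.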

How the data were processed

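Liver RNA was hybridised to 8 single-colour Agilent arrays, and groups were taken from the sample titles. The deposited signal intensity is that of Agilent Feature Extraction 11.5.1.1, which per the file headers is background-subtracted, spatially detrended and given a surrogate value at background level, with no step between arrays. The deposited series table equalled it on all 62976 spots of every array (medians over non-control spots from 13.3 to 16.4). For the present work each array's log2 75th percentile was subtracted. Flagged spots were set to missing (0 of the 88 readings of the 7 genes), and spots of a probe were then averaged. Genes were named by RefSeq accession (assembly GRCm38.p6, names only) for 27656 probes, and otherwise by symbol, older symbol or the name in the array files. The 22528 probes left without a name were not tested. Named probes well above background on at least 4 arrays with at least 3 values per group were tested, and the brightest probe represented a gene. Groups were compared with limma 3.58.1 in R 4.3.3 across all genes (lmFit, eBayes, Benjamini-Hochberg, threshold 0.05) and, for single values, with exact two-sided permutation tests. The fit was tested on simulated data. The number of arrays limits the precision. Named were Raly, the 7 genes, the genes past the threshold or the 2 of smallest p in each list, and the 3 genes most like each variable member. Lpin3, Srebf1, Mlxipl, Nr1h3, Ppargc1a, Nr3c1, Cebpb, Insig1, Tat, Slc2a4, S100a8, S100a9, Cela1, Adipoq, Lep and genes not well above background were added after values were seen. The members and lists were chosen with earlier results of these data known. Alternatives were normexp with an offset of 50, quantile or median scaling, other probe filters, the mean of probes, the series table, a replicate block and leaving out single arrays. The deviations of same-numbered arrays from their group means had correlations from -0.07 to 0.14.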

Additional observations from a re-analysis of the deposited data

How the results depend on the processing

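The 7 genes gave 0 calls under all 8 leave-outs of single arrays and all 8 other alternatives. Lpin1 kept its direction in all of them, with log2 fold changes from 1.09 to 1.68 and adjusted p from 0.0773 (normexp) to 0.303, and Gpam, Agpat2, Dgat2 and Lpin2 also kept theirs. The sign of Dgat1 turned with normexp (-0.050), with array median scaling (-0.018) and in 4 leave-outs (range over all leave-outs -0.075 to 0.12), and that of Mogat1 without control 3 (range -0.13 to 0.47). Raly passed with normexp (-0.71, adjusted p = 0.0111) and without shRaly 2 (leave-out range -0.80 to -0.59). The count of genes past the threshold was 182 and moved to 42 with no filter on dim probes, 46 with a replicate block and 17 to 282 in leave-outs. Under the replicate block Lpin1 had an adjusted p of 0.140. The numbers are not shown to pair the arrays, since 2 of 8 arrays correlated best with their own number. The single call among the regulators (Ppara) became 0 with quantile normalization, no filter, the mean of probes and the replicate block, and ranged from 0 to 1 in leave-outs. Aqp7 (0.20), Pvalb (0.036) and Vil1 (0.065) changed sign with normexp, Lgals1 in 3 leave-outs (range over all -0.13 to 0.26) and Acta1 without shRaly 3 (range -0.093 to 1.33). With normexp Cd79a stood at -0.14 in place of -0.36. Nrg4 lost its call with no filter on dim probes (adjusted p = 0.107), with the replicate block (0.0869) and in 6 of the 8 leave-outs. The cause was not tested. With 4 arrays a group, differences such as that of Mogat1 (95% interval 62.0% to 213%) are poorly bounded.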
